A study of Mus musculus with 44 samples.

Results

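The Egr transcription factors, Egr1, Egr2, Egr3 and Egr4, were followed through every assay of a study of mRNA levels, translation and poly(A)-tail length in mouse neurons. The members were the rows whose RefSeq accession belongs to one of the 4 genes (NM_007913 for Egr1, NM_010118 for Egr2, NM_001289925 for Egr3 and NM_020596 for Egr4), 4 of the 17158 accessions listed in any library. The family was chosen by earlier results of the same samples, the tag counts of visual cortex under light among them, so its values are given as a description and carry no p-value.

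The 44 libraries came from C57BL6J mice and fell into 3 settings. Primary visual cortex was taken from 8 mice of 6 to 7 weeks that had been kept in the dark for 1 week, 4 without light and 4 after 1 h of light, and was measured by PAL-seq v2, which counts mRNA 3′ ends (tags) and reads the length of the poly(A) tail on each. Cortical cultures, each batch pooled from litters of male and female pups at postnatal day 0 to 1, received AraC for 24 h, which removes dividing cells, and were measured by RNA-seq, by TAIL-seq (tags and tail lengths read from the sequence) and, for 7 of the 9 under labels that name the culture without conflict, by ribosome profiling, which counts ribosome-protected fragments (RPFs). Of these, 3 cultures at 14 days in vitro were unstimulated, treated for 30 min with the neurotrophin BDNF, or treated for 30 min with glutamate and glycine (glu/gly). Another 3 at 10 days in vitro were unstimulated or depolarised with KCl for 10 or 30 min. The last 3, also harvested at 14 days, carried a lentivirus from day 5 that expressed GFP from the neuronal synapsin promoter, alone or with miR-1 or miR-155. Adult hippocampus and adult cortex of 1 male mouse each and hippocampus of embryos at day 16 were the tissues. Cultures and tissues were sequenced as a single library in each assay, so their comparisons have no replicate check, and the intervals given for them cover counting error only.

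Egr proteins are zinc-finger transcription factors that bind a GC-rich DNA element. In neurons they are immediate-early genes: synaptic activity or growth factors switch on their transcription within minutes, with no need for new protein, through serum response factor bound at CArG boxes and through CREB bound at cyclic AMP response elements. Egr1 (also called Zif268) is the member most used as a marker of active neurons. Egr2 (Krox20) also directs hindbrain segmentation and myelination by Schwann cells, Egr3 is needed for muscle spindles, and Egr4 is the most divergent of the family. The proteins Nab1 and Nab2 bind an inhibitory domain of some Egr factors and repress the transcription those factors drive.

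The promoters of Egr2 and Egr4 are shown, since activity-driven transcription is known to act through elements there. Both are taken from RefSeq sequence of build GRCm38.p6 and cover the 200 bases before the start site of the measured transcript, written 5′ to 3′ on the strand of the gene. Egr2 lies at chr10:67537669-67537868 on the plus strand and Egr4 at chr6:85513590-85513789 on the minus strand. Capitals mark the CArG box and each TGACG, the core of the cyclic AMP response element, or its complement CGTCA.
Egr2: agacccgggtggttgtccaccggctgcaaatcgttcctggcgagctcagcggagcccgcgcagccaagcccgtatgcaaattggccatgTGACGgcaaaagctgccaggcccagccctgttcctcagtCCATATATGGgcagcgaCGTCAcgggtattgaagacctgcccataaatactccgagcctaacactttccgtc
Egr4: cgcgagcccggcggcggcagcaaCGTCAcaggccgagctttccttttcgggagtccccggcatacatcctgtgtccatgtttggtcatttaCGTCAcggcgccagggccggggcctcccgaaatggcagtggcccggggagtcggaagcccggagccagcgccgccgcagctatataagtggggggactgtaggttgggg

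Both strands were searched in the 300-base window of each promoter in the table, 250 bases before to 50 after the start. A CArG box was taken as an exact CCWWWWWWGG, where W is A or T, so sites with a mismatch were not counted. Egr2 held 1 CArG box, at -72 to -63, a motif found in 1.63% of the 32851 promoters. It held TGACG at -111 to -107 and, on the other strand, at -55 to -51. Egr4 held no exact CArG box and held TGACG on the other strand at -177 to -173 and at -109 to -105. At least 1 TGACG was found in 20.8% of promoters and at least 2 in 5.01%. The whole palindrome TGACGTCA (1.79% of promoters) and the Egr element GCGTGGGCG (0.612%) were in neither window, which says only that these letters are not there. A match is a description of the sequence, and no binding was measured here.

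In the same build Egr1 spans chr18:34861207-34864956, Egr2 chr10:67534469-67542188, Egr3 chr14:70077317-70082613 and Egr4 chr6:85511121-85513589. The coding sequences were GC-rich: 58.4% in Egr1, 58.4% in Egr2, 62.1% in Egr3 and 70.7% in Egr4, against a median of 53.1% over 17004 genes, and Egr4 exceeded 99.5% of genes. The 3′ untranslated regions differed more. That of Egr3 ran to 2708 nt and held 7 copies of ATTTA, a core of AU-rich elements that speed mRNA decay, and 5 copies of TTTTAT, a core of the element bound by cytoplasmic polyadenylation factors. Egr1 (1188 nt) held 2 copies of ATTTA and 1 of TTTTAT, Egr2 (1200 nt) held 3 and 0, and Egr4 (519 nt) held 0 of both. The median gene had 924 nt, 1 ATTTA and 1 TTTTAT.

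Library totals on genes ran from 448022 to 7689624 reads in RNA-seq, from 2812215 to 23212489 RPFs in ribosome profiling under labels without conflict, from 86841 to 1057812 tags in the culture and tissue tail libraries, and from 1233538 to 4812273 tags in the visual cortex, where the deepest library was dark mouse 2. Levels below are CPM, counts scaled to a total of 1000000 on listed genes, and levels of different genes were compared in RNA-seq and RPFs only per kb of the counted reading frame. All 6 neuronal markers (Rbfox3, Snap25, Syt1, Tubb3, Slc17a7 and Gad1) were present in every visual cortex and culture library. The cultures also held astrocyte markers, with 707 to 1520 read CPM summed over 4 genes in RNA-seq, whereas endothelial markers stayed under 8 read CPM. In visual cortex the summed markers of neurons (8488 to 9623 tag CPM in the dark, 8707 to 9848 in light), astrocytes (382 to 495 and 274 to 421), oligodendrocytes (589 to 942 and 381 to 708) and microglia (301 to 371 and 305 to 342) overlapped between the groups. In all of these bulk samples, more cells expressing a gene and more mRNA per cell cannot be told apart.

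The first question was how far 1 h of light moved each member after a week in the dark. All 4 had a higher tag CPM in every light mouse than in any dark mouse, a separation shown by 2.63% of the 9554 genes with enough tags to be fitted. Egr1 stood at 101, 132, 162 and 212 tag CPM in the 4 dark mice and at 1041, 1467, 1525 and 1177 in the 4 light mice. Egr4 stood at 23.9, 36.4, 67.9 and 95.02 in the dark and at 838, 1087, 1040 and 755 in light. The lowest light mouse was thus far above the highest dark mouse for both genes, and the dark mice spanned a wider ratio for Egr4 than for Egr1.

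Egr2 was the least abundant member in the dark and had the largest fold. It was not listed in dark mouse 1, where 3 tags would have been 2.05 CPM, and stood at 3.74, 15.6 and 27.4 tag CPM in the other dark mice and at 367, 509, 330 and 202 in the light mice. Egr3 changed least, from 109, 138, 159 and 130 tag CPM in the dark to 328, 532, 692 and 343 in light. Its dark level lay close to that of Egr1 in 3 of the dark mice, and its level was below that of Egr1 in every light mouse.

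**Figure D1:**
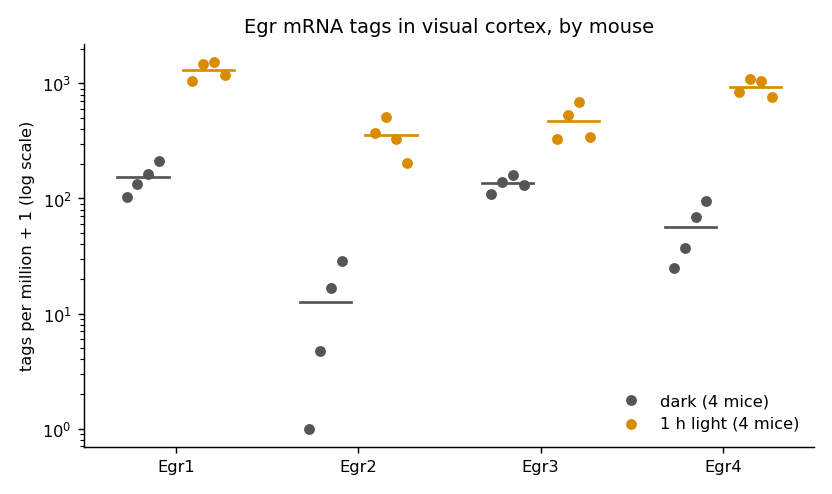
Egr mRNA in primary visual cortex. Each point is 1 mouse (grey, 4 mice in the dark; orange, 4 mice after 1 h of light), the vertical axis is tag CPM plus 1 on a log scale, and the lines are group means. Every light mouse lies above every dark mouse for each gene, the group means lie farthest apart for Egr2 and closest for Egr3, and the Egr2 point at the bottom is the mouse in which it was not listed.

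Fitted across all genes with edgeR, the log2 change was 3.15 ± 0.16 (SE, 8.87-fold) for Egr1, 5.33 ± 0.39 (40.1-fold) for Egr2, 1.85 ± 0.18 (3.61-fold) for Egr3 and 4.18 ± 0.23 (18.2-fold) for Egr4, with n = 4 mice a group. Egr2 ranked 1st and Egr4 4th of the 9554 genes by this value, Egr1 13th and Egr3 31st. Dark Egr2 rested on 0 to 34 tags, and its fold ran from 26.2 without dark mouse 2 to 68.5 without dark mouse 4, and DESeq2 gave 31.2. In that fit 116 genes (1.21%) were higher in light and 12 (0.126%) lower at an adjusted p below 0.05. Together the family made up 234 to 465 tag CPM in the dark mice and 2477 to 3596 in the light mice. The share of Egr1 among them was similar in both, 40.1% to 45.6% in the dark and 40.4% to 47.5% in light.

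Poly(A) tails did not move together. Egr3 tails were longer in light, Egr4 tails leaned shorter, and Egr1 tails stayed within the spread of the mice. The mean Egr3 tail was 86.4, 77.5, 70.8 and 84.7 nt in the dark mice and 121, 143, 139 and 107 nt in the light mice. Every light mouse was above every dark mouse, which held for 0.602% of the 4321 genes with at least 50 tags in each mouse. The difference of the means was 47.5 nt (dark 79.9 ± 7.15 nt and light 127 ± 16.3 nt, SD, n = 4 each), ranked 1st of the 4321 genes. The next gene, Ifrd1, gained 29.6 nt, and the median gene 3.75 nt.

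The mean Egr1 tail was 89.0, 86.7, 97.8 and 103 nt in the dark mice and 98.9, 104, 94.6 and 85.5 nt in the light mice, a difference of 1.47 nt with overlapping groups. The mean Egr4 tail was 107 nt in dark mouse 1, from 35 tags, and 85.4, 93.6 and 107 nt in the other dark mice, against 83.0, 89.3, 79.2 and 68.3 nt in light. The Egr4 difference was -18.2 nt with all mice and -15.3 nt without the mouse under 50 tags, and the groups overlapped through dark mouse 2. Egr2 had 18 to 34 tags in the dark mice that listed it, with means of 73.2, 120 and 146 nt, too few for a comparison. In the light mice its mean tail was 83.5, 82.1, 87.7 and 78.6 nt.

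The median tail of all tested genes also differed between mice, at 92.4, 90.7, 77.5 and 80.01 nt in the dark and 83.3, 94.1, 97.5 and 81.7 nt in light, so each tail was also taken relative to the median of its mouse. On that scale Egr3 stood at -6.01, -13.2, -6.69 and 4.67 nt in the dark and at 37.4, 48.4, 41.2 and 25.7 nt in light. Egr4 stood at 14.2, -5.24, 16.03 and 26.8 nt in the dark and at -0.30, -4.86, -18.3 and -13.4 nt in light. The direction of both differences was the same on this scale, 43.5 nt for Egr3 and -22.2 nt for Egr4, and that of Egr1 turned to -2.55 nt.

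**Figure D2:**
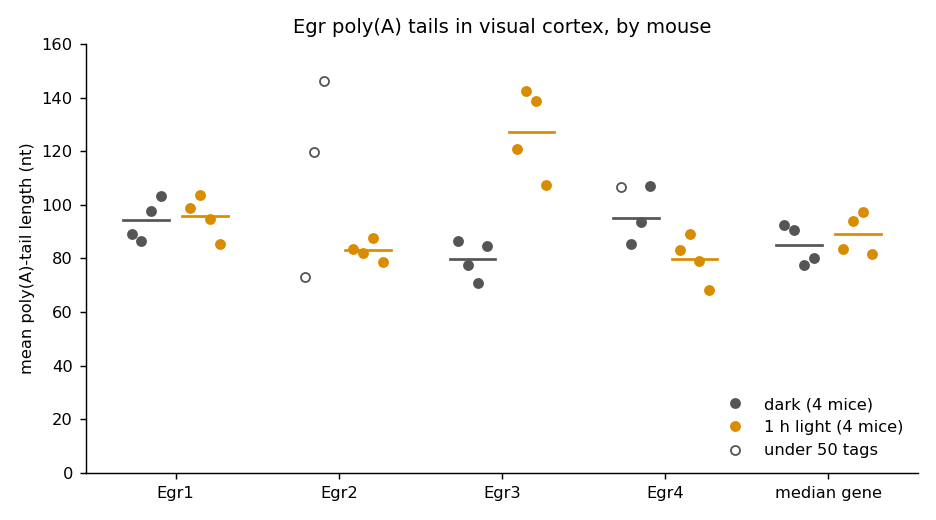
Poly(A)-tail length of the Egr members in primary visual cortex. Each point is the mean tail length in nt of 1 gene in 1 mouse (grey, dark; orange, 1 h of light; open, fewer than 50 tags), lines are means over mice with at least 50 tags, and the last column gives the median of the 4321 genes tested in each mouse. Egr3 alone of the family separates fully upward, to 107 nt or more, whereas Egr1 overlaps between groups and the light mice of Egr2 and Egr4 lie between 68.3 and 89.3 nt.

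Among the 116 genes that were higher in light, 46 had enough tags for the tail fit, Egr1 and Egr3 among them. Of the other 44, 39 had a longer mean tail in light, with a median change of 9.78 nt and a range from -7.53 nt (Otud1) to 29.6 nt (Ifrd1). Most of all 4321 genes fitted were longer too. Their median change was 3.75 nt, and Egr1, at 1.47 nt, ranked 3182nd from the longest gain. The fit (limma, adjusted p below 0.05) called 10 genes (0.231%), all longer, 5 of them among these 44. Egr1 therefore lay below the median of the induced genes and Egr3 above all of the other 44, as a description with no test.

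The second question was what 30 min of stimulation did in culture, where RNA-seq, tags and RPFs were all read. RNA-seq held few reads of these genes. Egr1 had 4 reads in the unstimulated 14-day culture, 16 with BDNF and 11 with glu/gly, and Egr3 had 4, 9 and 6. Egr2 had 2, 57 and 17 reads and Egr4 had 6, 50 and 21. Every count was higher with a stimulus than without, but the intervals were wide, and the tags and RPFs give the firmer values. The ratio in CPM was 2 or more in 4 of 4 members with BDNF, with an interval above 1 in 3, and in 3 of 4 with glu/gly, with an interval above 1 in 2. Of genes with at least 20 reads over both cultures, 1.61% of 7868 and 3.13% of 8175 were that high. Egr3 with BDNF, and Egr1, Egr2 and Egr3 with glu/gly, were under 20 reads.

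With BDNF, tags of Egr1 went from 213 to 698, 3.23-fold in CPM (95% interval 2.77 to 3.78), and its RPFs from 1256 to 5318, 4.97-fold (4.67 to 5.29). Tags of Egr4 went from 114 to 490, 4.24-fold (3.45 to 5.24), and its RPFs from 313 to 1577, 5.91-fold (5.23 to 6.69). Tags of Egr2 went from 34 to 205, 5.94-fold (4.12 to 8.82), and its RPFs from 83 to 989, 14.0-fold (11.2 to 17.7). Egr3 departed from the others. Its tags went from 93 to 301, 3.19-fold (2.52 to 4.07), close to Egr1, but its RPFs only from 375 to 546, 1.71-fold (1.49 to 1.95). Thus 4 of 4 members were at least 2-fold higher in tags, where 1.08% of 8876 genes were, and 3 of 4 in RPFs, where 0.845% of 11595 genes were.

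Glu/gly gave smaller ratios, with the same order of the members in RPFs. Tags of Egr1 reached 367, 2.25-fold (1.89 to 2.67), tags of Egr4 186, 2.13-fold (1.68 to 2.71), tags of Egr3 118, 1.65-fold (1.25 to 2.20), and tags of Egr2 44, 1.69-fold (1.05 to 2.72). Their RPFs were at 2379 for Egr1 (2.92-fold, 2.73 to 3.13), 639 for Egr4 (3.15-fold, 2.75 to 3.62) and 227 for Egr2 (4.22-fold, 3.27 to 5.49). RPFs of Egr3 stood at 245, a ratio of 1.01 (0.85 to 1.19), with no change beyond counting error. At 2-fold or more were 2 of 4 members in tags (1.19% of 8588 genes) and 3 of 4 in RPFs (0.812% of 11454 genes). BDNF and glu/gly share the unstimulated culture.

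In the separate 10-day cultures, RPFs of Egr1 went from 341 without KCl to 462 after 10 min, 2.33-fold (2.02 to 2.69), and to 2145 after 30 min, 19.6-fold (17.4 to 21.99). RPFs of Egr4 went from 41 to 69, 2.89-fold (1.94 to 4.37), and then to 191, 14.5-fold (10.3 to 20.8). RPFs of Egr2 went from 20 to 28, 2.41-fold (1.31 to 4.51), and then to 150, 23.3-fold (14.6 to 39.3). These 3 members were at least 2-fold higher at 10 min, as were 1.37% of 12661 genes, and much higher by 30 min. RPFs of Egr3 went the other way in raw number, from 184 to 85 and 69, ratios of 0.79 (0.61 to 1.03) and 1.17 (0.87 to 1.55) in CPM, both within counting error. At 30 min 3 of 4 members were at least 2-fold higher in RPFs, as were 1.61% of 12490 genes.

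Tags of Egr1 after KCl went from 33 to 72 and 413, 2.30-fold (1.501 to 3.58) and 9.74-fold (6.83 to 14.3). Tags of Egr3 were 14, 13 and 39, ratios of 0.98 (0.42 to 2.24) and 2.17 (1.15 to 4.32), so that Egr3 tags were higher at 30 min while its RPF CPM were not beyond counting error. Tags of Egr4 were 16, 11 and 82, ratios of 0.72 (0.30 to 1.66) and 3.99 (2.32 to 7.30), and tags of Egr2 were 4, 9 and 55. After 30 min all 4 members were at least 2-fold higher in tags, as were 2.64% of 8322 genes. In RNA-seq the 30-min culture had 18, 18, 2 and 11 reads of Egr1, Egr2, Egr3 and Egr4, against 9, 2, 7 and 3 without KCl, ratios of 2 or more in 3 of 4 members (2.5% of 10106 genes) and of 0.42 (0.04 to 2.23) for Egr3. The share is over genes with at least 20 reads in both cultures together, a limit that Egr3 and Egr4 missed. After 10 min the ratio was 2 or more in 1 of 4 members in RNA-seq (1.21% of 9864 genes), Egr3 with 7 and 8 reads, and in 2 of 4 in tags (1.91% of 7896), with an interval above 1 for Egr1 alone. All 4 members in RNA-seq and Egr2 in tags were under 20 counts over both cultures.

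**Figure D3:**
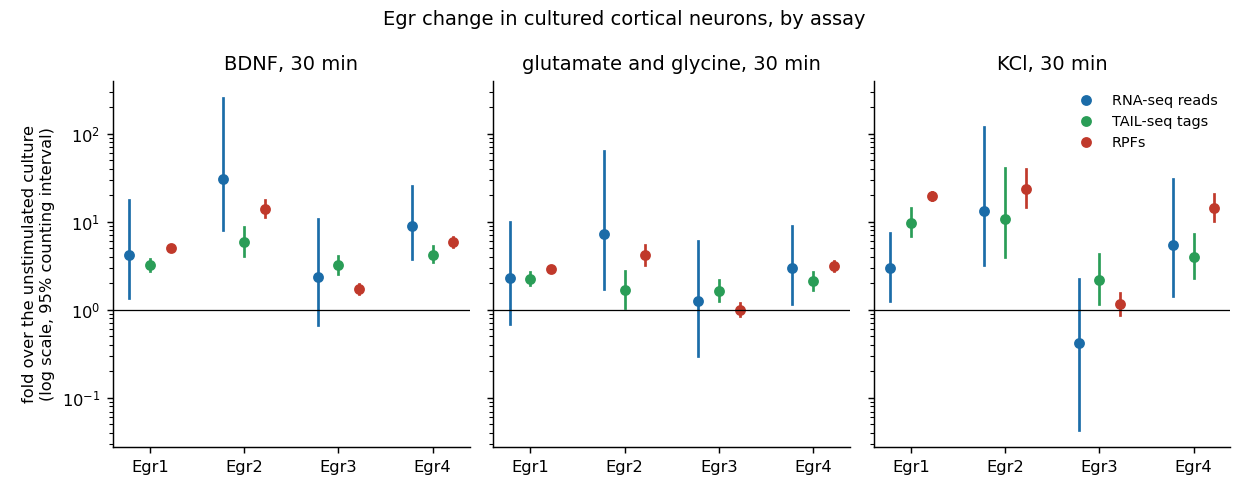
Change of the Egr members 30 min after stimulation of cultured cortical neurons. Points are the CPM in the stimulated culture over that in its unstimulated culture (log axis; blue, RNA-seq reads; green, TAIL-seq tags; red, RPFs), with 95% counting intervals and 1 library per condition and assay. RPFs exceed tags in fold for Egr1, Egr2 and Egr4, whereas for Egr3 the RPFs stay between 1.01 and 1.71 in all 3 stimuli and lie below the tags.

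Setting the fold in RPFs over the fold in tags puts this contrast on a single scale. With BDNF it was 1.54 (1.30 to 1.81) for Egr1, 2.35 (1.54 to 3.60) for Egr2, 1.39 (1.10 to 1.77) for Egr4 and 0.535 (0.410 to 0.699) for Egr3, where the median of 3996 genes was 0.964 and the 1st and 99th percentiles were 0.583 and 1.56. With glu/gly it was 1.30, 2.499, 1.48 and, for Egr3, 0.609 (0.444 to 0.835), around a median of 0.937. After 30 min of KCl, in the independent 10-day cultures, it was 2.01 (1.38 to 2.91) for Egr1, 2.18 (0.713 to 6.66, from 4 control tags) for Egr2, 3.63 (1.93 to 6.84) for Egr4 and 0.538 (0.275 to 1.05) for Egr3, around a median of 0.982. Egr3 was thus lower than the other 3 members in each stimulus, and below the median gene each time, although its KCl interval, resting on 14 control tags, reached above 1 and overlapped that of Egr2. Only with BDNF did the Egr3 value lie below the 1st percentile of genes, and its interval reached above that percentile. With glu/gly the 1st and 99th percentiles were 0.530 and 1.56, and 3.63% of genes were lower than Egr3. After KCl they were 0.363 and 1.71, and 5.45% of genes were lower. Differences between members were not tested. These intervals use a normal approximation on the log scale. With RNA-seq in place of tags, the direction was not the same throughout. The BDNF fold in RNA-seq was 30.2 for Egr2 and 8.84 for Egr4, above their RPF folds of 14.0 and 5.91. With glu/gly it was 7.19 for Egr2, above 4.22 in RPFs. The wide RNA-seq intervals held the RPF fold in each case. RNA-seq folds lay below RPF folds for Egr1 in each stimulus, Egr4 with glu/gly and every member after 30 min of KCl. They lay above for Egr3 with BDNF and glu/gly.

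**Figure D4:**
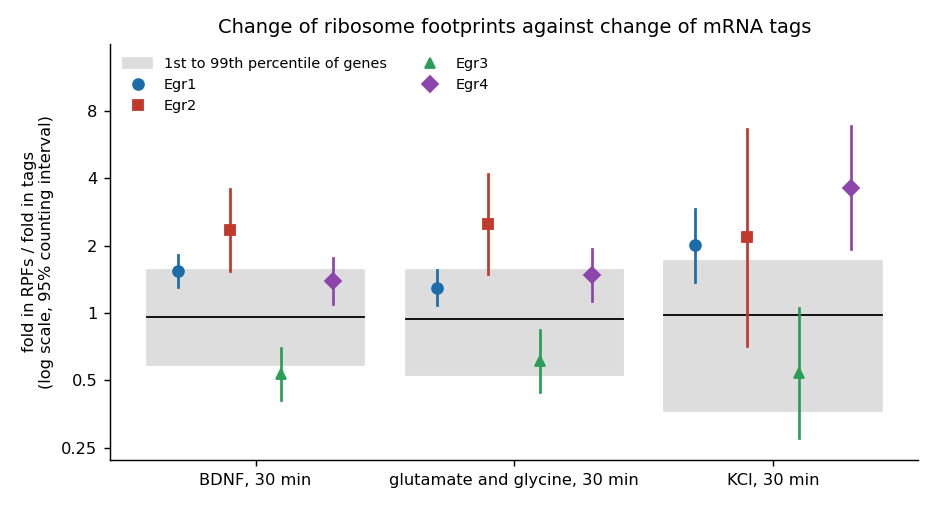
Fold in ribosome-protected fragments divided by fold in TAIL-seq tags after 30 min of each stimulus. Points are the Egr members with 95% counting intervals on a log axis, the black line is the median gene, and the grey band runs from the 1st to the 99th percentile of genes with at least 50 tags in both cultures, a limit that Egr2 and, for KCl, all members miss in the control. Egr1, Egr2 and Egr4 lie above the median line in all 3 stimuli and Egr3 below it.

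Tails in culture were longer after 30 min of BDNF or glu/gly in the 3 members with enough tags. In the unstimulated 14-day culture the mean tail was 124 nt for Egr1, 118 nt for Egr3 and 108 nt for Egr4, and 121 nt for Egr2 from 34 tags. The median gene there was at 112 nt. Egr1 was longer than 83.6% of 4364 genes, Egr3 than 69.3% and Egr4 than 36.8%. With BDNF it was 160 nt for Egr1, 166 nt for Egr2, 140 nt for Egr3 and 149 nt for Egr4, each longer than at least 98.5% of the 4388 genes measured there. The change was 35.97 nt for Egr1, 22.4 nt for Egr3 and 41.6 nt for Egr4. Egr4 and Egr1 ranked 1st and 2nd of the 4098 genes with 50 tags in both cultures, while the median gene changed by -1.04 nt and 0.708% of genes gained 20 nt or more. All 3 testable members were among these.

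With glu/gly the mean tail was 139 nt for Egr1, 133 nt for Egr3, 137 nt for Egr4 and 151 nt for Egr2 (44 tags). Egr4 gained 29.2 nt, the longest gain of 3516 genes, and was the 1 of 3 testable members past 20 nt, a step passed by 0.284% of genes. Egr1 gained 15.1 nt and Egr3 14.9 nt, against -4.68 nt for the median gene. After 30 min of KCl the mean tail was 147 nt for Egr1, 138 nt for Egr2 and 131 nt for Egr4, with a median gene of 106 nt, but none of the members had 50 tags in the unstimulated 10-day culture. There the mean was 140 nt for Egr1 from 33 tags, 168 nt for Egr2 from 4, 117 nt for Egr3 from 14 and 121 nt for Egr4 from 16, too few for a comparison, and the Egr1 value was 6.87 nt below that after KCl. With n = 1 library each, no spread between cultures is known. The GFP culture, unstimulated at the same 14 days, had shorter Egr1 tails (102 nt) and Egr4 tails (86.5 nt) than the unstimulated culture by 21.7 and 21.1 nt, where the median gene was 8.45 nt shorter, a difference of the same order as some stimulus changes.

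**Figure D5:**
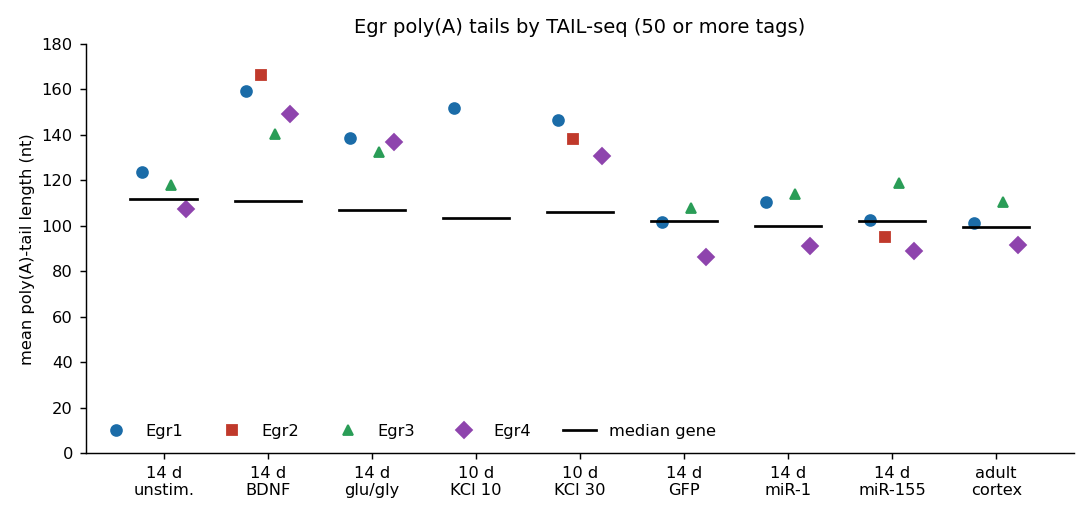
Mean poly(A)-tail length of the Egr members in each TAIL-seq library, in nt, for members with at least 50 tags (blue circle, Egr1; red square, Egr2; green triangle, Egr3; purple diamond, Egr4; black bar, median gene). In the libraries taken 30 min after BDNF, glu/gly or KCl every measured member lies at 131 nt or above, as does Egr1 after 10 min of KCl, whereas in the unstimulated 14-day, lentiviral and adult cortex libraries none exceeds 124 nt; the unstimulated 10-day library had no member with 50 tags and is not drawn.

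The side-by-side values at 30 min in culture and 1 h in visual cortex differed by member, though time, tissue and method differ too and the 2 were not compared by a test. Egr3, the member with the smallest gain in tail length under BDNF, had the longest tails in light-exposed cortex. Egr4, with the largest gain in culture among members with 50 tags in both libraries, had the shortest tails of the family in 3 of 4 light mice.

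Translational efficiency (TE) is the log2 ratio of RPFs to RNA-seq reads, each in RPM as deposited, and was taken where RNA-seq gave a gene 10 RPM or more. Only 6 of the member values passed. In the BDNF culture TE was 2.73 for Egr2 (counting interval 2.34 to 3.14) and 3.59 for Egr4 (3.18 to 4.02), where the median of 5206 genes was 1.04. In adult hippocampus it was 1.87 for Egr1 (1.77 to 1.96) and 2.10 for Egr3 (1.96 to 2.23) around a median of 0.88, and in adult cortex 4.85 for Egr1 (4.64 to 5.08) and 3.71 for Egr3 (3.39 to 4.06) around a median of 1.31. All 6 were above the median, and the 2 values of adult cortex exceeded 99.5% of its 5019 genes.

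These ratios depended on the RNA-seq counts, in which the members were scarce relative to their tags in adult cortex and the cultures. In adult hippocampus Egr1 and Egr3, with 26 and 31 tags, were under the 50-tag limit for this comparison. In CPM, Egr1 had 96.3 reads per kb against 117 tags there, and Egr3 71.6 against 140. In adult cortex, reads per kb per tag placed Egr1 below all but 1.85% of 2805 genes, Egr4 below all but 2.46% and Egr3 below all but 8.59%. In the unstimulated 14-day culture only 0.37% of 4319 genes had a lower ratio than Egr1, with 4 reads against 213 tags, and 2.94% and 2.43% had a lower ratio than Egr3 and Egr4. Egr2 was higher, at 27.2% of genes with BDNF, with 57 reads against 205 tags. The ratio also fell with GC content of the coding sequence: in that unstimulated culture its median was -1.03 on the log2 scale in the 10% of genes richest in GC and -0.33 in the poorest 10%. In adult hippocampus it rose instead, with medians of -0.79 in the richest and -1.78 in the poorest 10%. Egr1 and Egr2, with the same GC content, had log2 ratios of -4.94 and -1.15 with BDNF. The part of GC content in these values was not tested.

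With tags in place of reads, the members lay within the range of other genes. RPFs per kb per tag of Egr1 exceeded 71.5% of genes in adult cortex, 74.1% in the unstimulated 14-day culture and 90.1% with BDNF. Egr3 exceeded 81.2% in adult cortex and 76.7% unstimulated, but 44.2% with BDNF. Egr4 stood lower, above 24.8% of genes in adult cortex, 37.2% unstimulated and 59.1% with BDNF.

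Across tissues, RNA-seq read CPM were 149 for Egr1, 2.20 for Egr2, 71.6 for Egr3 and 21.7 for Egr4 in adult hippocampus, and 101, 4.68, 46.8 and 29.3 in adult cortex. In embryonic hippocampus they were 2.08, 1.17 and 0.91 for Egr1, Egr3 and Egr4, and Egr2 was not listed. Both adult tissues thus had the order Egr1, Egr3, Egr4, Egr2, also per kb of reading frame (96.3, 71.6, 15.6 and 1.61 in hippocampus). Hippocampal RNA was selected for poly(A) and cortical RNA depleted of ribosomal RNA, so levels of the 2 adult tissues are set side by side only.

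Within hippocampus, where both libraries were made the same way, Egr1 went from 16 reads in the embryo to 1088 in the adult, 71.8-fold in CPM (44.0 to 126), Egr3 from 9 to 521, 61.1-fold (31.96 to 134), and Egr4 from 7 to 158, 23.8-fold (11.3 to 60.3). Egr2 had 16 adult reads and 0 embryonic reads, at least 5.63-fold higher against a floor of 3 reads. At this step 22.3% of 12884 genes were 2-fold or more higher in the adult. In RPFs 30.3% of 12819 genes were 2-fold or more higher. RPFs of Egr3 went from 177 to 3174, 19.2-fold (16.5 to 22.5). RPFs of Egr1 were 2 in the embryo and 5656 in the adult, a ratio of 3031 (839 to 25033), and those of Egr4 were 1 and 1404, a ratio of 1505 (270 to 59475). The embryonic RPFs of Egr3, 177 against 9 reads, were therefore out of line with those of Egr1 and Egr4. No Egr2 RPF was listed in either hippocampus, whereas adult cortex had 182. The hippocampal RPF libraries listed few genes for their depth, 12653 in the adult from 21658829 RPFs and 11880 in the embryo from 23212489. The GFP culture listed 13723 genes from 2949577 RPFs. The counting intervals do not cover this, and low or absent counts in these hippocampal libraries were not checked further. The summed markers of oligodendrocytes, whose myelin genes mark mature brain, differed between the same libraries, at 1131 read CPM in the adult and 14.0 in the embryo, as did those of neurons, at 5087 and 2096, and their part was not tested.

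Tails of the members in adult cortex were 101 nt for Egr1, 110 nt for Egr3 and 91.7 nt for Egr4, with a median gene of 99.5 nt. This order was that of the GFP culture as well, and the Egr4 tail was shorter than all but 24.0% of genes in adult cortex and all but 9.63% in the GFP culture. In adult hippocampus the members had 2 to 31 tags, under the limit for a tail comparison, and in embryonic hippocampus 1 tag in all.

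The members were also compared in the lentiviral cultures, which received no stimulus. Against the GFP culture, tags of Egr1 were 1.38-fold with miR-1 (1.05 to 1.82) and 2.00-fold with miR-155 (1.56 to 2.59), those of Egr4 1.65-fold (1.17 to 2.34) and 2.30-fold (1.68 to 3.20), those of Egr2 1.80-fold (0.96 to 3.50) and 2.99-fold (1.70 to 5.57), and those of Egr3 1.09-fold (0.77 to 1.56) and 1.57-fold (1.14 to 2.18). All 8 ratios were above 1, higher with miR-155 in each member, and 2-fold or more in 3 of 4 members with miR-155, as in 2.75% of 6588 genes. In RNA-seq, with 3 to 10 reads a member in the GFP culture, 1 of 4 members (Egr4, 4 to 66 reads) was 2-fold or more higher with miR-155, as were 4.03% of 9944 genes. With miR-1, 0 of 4 members were in tags (2.82% of 6481 genes) and 0 of 4 in RNA-seq (2.92% of 8500). Other immediate-early factors were 2-fold or more higher in the same libraries: with miR-155, 3 of 7 measured in tags (Fos, Fosb and Junb) and 2 of 6 in RNA-seq (Jun and Nr4a1), and with miR-1, 2 of 6 in tags (Fos and Nr4a1) and 2 of 5 in RNA-seq (Jun and Nr4a1). Astrocyte markers were at 395, 296 and 248 tag CPM in the GFP, miR-1 and miR-155 libraries, and their part was not tested. Both miRNA cultures share the GFP control, and 1 culture stands for each virus.

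Of the proteins that act with the family, the co-repressor Nab2 rose with light and Nab1 did not pass the test. Nab2 was at 11.6, 9.97, 18.7 and 24.2 tag CPM in the dark mice and 50.3, 47.2, 49.0 and 48.1 in light, a 3.35-fold rise (log2 1.74 ± 0.23, SE; edgeR adjusted p = 2.71e-05). Nab1 was at 62.2, 38.7, 49.2 and 61.2 in the dark and 40.5, 53.6, 50.8 and 60.0 in light (log2 0.04 ± 0.17, edgeR adjusted p = 0.979). In culture neither was 2-fold higher with BDNF, glu/gly or KCl in any assay. With BDNF the tag ratio was 0.76 (0.44 to 1.29) for Nab1 and 0.90 (0.54 to 1.499) for Nab2. RPFs of Nab1 were lower after KCl, from 199 to 32 at 10 min (0.28, 0.18 to 0.40) and 12 at 30 min (0.19, 0.10 to 0.33), while its tags were 14, 15 and 22. RPFs of Nab2 were lower as well, from 158 to 62 with glu/gly (0.61, 0.44 to 0.82) and from 362 to 156 and 70 after 10 and 30 min of KCl (0.74, 0.61 to 0.90, and 0.60, 0.46 to 0.78). Nab2 RNA-seq reads went from 21 to 12 with glu/gly (0.48, 0.22 to 1.03).

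Upstream of the family, 21 genes of the serum response and CREB routes were listed, and 16 were tested under light. Only Srf, the factor that binds CArG boxes, passed the test, at 53.3, 69.0, 57.8 and 78.1 tag CPM in the dark and 91.6, 123, 104 and 108 in light (1.68-fold, log2 0.75 ± 0.13, edgeR adjusted p = 0.0015). The median log2 change of the 16 was -0.04, that of all genes -0.00471. In culture, with 14 to 21 of the genes measured per assay, few were 2-fold higher or lower at 30 min. Those higher were Rps6ka5 in tags with BDNF and Ep300 and Mrtfb in RNA-seq with glu/gly, and those lower were Elk1 in RPFs and Elk3 in tags after KCl. The genes differed between assays.

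Of 11 neuronal genes published as Egr targets, 9 were tested under light, and Arc and Nab2 rose. Arc, an immediate-early gene of synaptic scaling, was at 30.1, 28.1, 65.6 and 242 tag CPM in the dark and 982, 1076, 735 and 399 in light (9.81-fold, log2 3.29 ± 0.43, edgeR adjusted p = 2.49e-05). Its fold ran from 7.39 without dark mouse 2 to 21.5 without dark mouse 4, the dark mouse in which it was highest. The median log2 change of the 9 was 0.11. In culture Arc tags went from 32 to 385 with BDNF, 11.9-fold (8.26 to 17.6), to 126 with glu/gly, 5.13-fold (3.46 to 7.83), and from 9 to 51 after 30 min of KCl, 4.41-fold (2.15 to 10.2). Arc is itself an immediate-early gene, and the synapsins, Dlg4 and Grin1 on the same list did not pass the test.

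The other zinc-finger factors of GC-rich sites, of the Sp, Klf and Wt1 families, were listed for comparison. Of 11, 6 were tested under light and Klf10 rose, from 9.58, 19.1, 19.5 and 46.7 to 63.2, 47.9, 54.7 and 48.7 tag CPM (2.41-fold, log2 1.27 ± 0.27, edgeR adjusted p = 0.00935). That call was lost in 3 of 12 alternatives (DESeq2 adjusted p = 0.297). Of 8 other immediate-early transcription factors, 7 rose with light (Fos 15.04-fold, Fosb 22.9-fold, Fosl2 8.82-fold, Junb 5.13-fold, Npas4 7.15-fold, Nr4a1 17.5-fold and Ier2 2.96-fold), with edgeR adjusted p from 7.46e-10 to 0.0261, and Jun did not pass (1.58-fold, edgeR adjusted p = 0.0999). The call of Ier2 was lost in 7 of 12 alternatives and that of Junb with DESeq2 alone. Without dark mouse 4 the fold was 31.4 for Fos, 9.42 for Junb, 10.9 for Npas4 and 4.48 for Ier2. With all mice, the folds of Egr1, Egr3 and Egr4 lay within the range of this list and that of Egr2 above it.

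The genes most alike in level differed by setting. Over the 8 visual cortex mice, among 10005 genes, Pearson's r was highest with Per1 (0.996), Egr4 (0.995) and Fosb (0.994) for Egr1, with Fos (0.994), Egr4 (0.978) and Dusp1 (0.975) for Egr2, with Dusp14 (0.989), Fbxo33 (0.985) and Rgs4 (0.982) for Egr3, and with Egr1 (0.995), Fosb (0.994) and Nr4a1 (0.991) for Egr4. Over the 12 RNA-seq libraries, among 11406 genes, Egr4 was most like Arc (0.909), Junb (0.905) and Nr4a1 (0.898) and Egr2 most like Gadd45b (0.910), Arl4d (0.906) and Ralyl (0.883). Egr1 was there most like Nhsl2 (0.949), Aatk (0.918) and Ptprn (0.916) and Egr3 most like Jade2 (0.956), Rapgefl1 (0.949) and Lpcat4 (0.946). Within the family, r over the RNA-seq libraries was 0.842 for Egr1 with Egr3 and 0.781 for Egr2 with Egr4, but 0.1204 for Egr1 with Egr2. These values are a description: the points share their contrast of light with dark, or of tissue with culture, and many rest on few reads.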

How the data were processed

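RNA-seq and ribosome-profiling counts, per the labels and the study's methods, were made by aligning reads to mm10 (STAR 2.4.2 and bedtools are named in the submitters' processing notes) and counting those on the coding sequence of a representative transcript, leaving out the 50 nt after the start codon. The deposited RPM values were scaled by the authors to a total larger than the counts on listed genes, and were used for the 10 RPM limit on RNA-seq and for translational efficiency. The log2 translational efficiencies deposited by the authors served as a check only. The tail libraries hold deposited tag counts and mean and median tail lengths in nt. The hippocampal tail files have no header, and their tail values, all multiples of 0.5 nt, were taken as medians. Tails were compared at 50 tags or more, and tail standards were left out of totals.

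The members, lists and markers were chosen with earlier results of these data known. Named were the 4 members, the 3 genes with the highest Pearson r to each over log2(CPM + 1), list genes passing the light test, and Nab1, Nab2 and Arc in culture. Light was tested over all genes with edgeR 4.0.16 (quasi-likelihood, TMM, filterByExpr) on counts and with limma 3.58.1 on mean tail lengths, with Benjamini-Hochberg adjustment, in R 4.3.3. Standard errors in the tail fit were shared across genes (6.68 nt). Nothing ties the mice of a group to separate cages or days, so p-values measure the spread between these samples. In simulated data edgeR recovered 80.3% of genes changed 2-fold in the light comparison of 9517 genes, and limma 52.5% of tails changed by 20 nt in that of 4321 genes. The edgeR share covers changed genes that passed the filter. Simulated counts had the same dispersion for every gene and simulated tails the same SD, so these shares need not hold for more variable genes. Culture and tissue ratios, with 1 library each, carry 95% Clopper-Pearson intervals. Shares of genes at 2-fold or more cover genes with at least 20 counts in both libraries together, and members under that limit are named. Intervals and floors of 3 counts cover counting error only. Library totals are given with the results, and deeper libraries give narrower intervals. These intervals take each count as independent, which was not tested. Alternatives were DESeq2 1.42.0, no TMM, no filter, a replicate block, leaving out each mouse, other tag and RPM limits, and other assays as the measure of mRNA. Promoters came from a RefSeq table of GRCm38.p6. It had 5 entries for Egr2, of which the one at the start of the measured transcript was used, and 1 for Egr4. Those of Egr1 and Egr3 were not analysed here. For 2 ribosome-profiling libraries the labels name both miRNAs, so they entered no comparison of miRNA effects.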

Additional observations from a re-analysis of the deposited data

Results flagged for a closer look

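Ribosome-profiling libraries whose labels conflict over miR-1 and miR-155 entered no comparison of miRNA effects, and both were singled out because they held the Egr family above the level in the GFP culture. Summed over the 4 members, 1 library held 1081 RPF CPM and the other 1219, against 634 in the GFP culture, ratios of 1.70 and 1.92. Their totals on genes were 817114 and 6428048 RPFs, in the same order. Egr1 stood at 687 and 729 RPF CPM against 386, Egr2 at 83.2 and 94.4 against 40.0, Egr3 at 151 and 198 against 114, and Egr4 at 160 and 198 against 94.6. Each member was higher in both libraries than in the GFP culture, which is a single library, and the difference has no replicate check.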

How the results depend on the processing

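The count of genes changed by light in number of tags was 128 and stayed between 100 (without light mouse 3) and 150 (without light mouse 4), with 126 by DESeq2, 127 without TMM and 192 without the filter. The count of genes with changed tails in light was 10 and was less stable: 1 on the log2 scale, 3 after centring on the median gene of each mouse (an alternative chosen after seeing the data), and 1 to 21 when a mouse was left out. It was 1 without dark mouse 3, dark mouse 4 or light mouse 2, 2 without dark mouse 2 or light mouse 3, 19 without dark mouse 1 and 21 without light mouse 4. The Egr3 lengthening was 42.4 to 54.1 nt in these leave-outs and the Egr1 difference -1.22 to 4.85 nt. The causes were not tested.

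With the mouse number as a replicate block, 113 genes changed in tags and 1 in tails. Deviations of same-numbered mice correlated at 0.03, -0.20, -0.10 and -0.09, so the samples share only a number, and no pairing was assumed.

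Counting a member where its ratio was at least 2 with an interval above 1, after 10 min of KCl 0 members were higher in RNA-seq, 1 in tags and 3 in RPFs. With miR-155, 1 was in RNA-seq and 3 were in tags. Translational efficiency had 6 member values at 10 RPM, 1 at 30 RPM, 38 with no limit and 20 with tags in place of reads. With tags, also added after seeing the data, log2 values lay above the median gene by 0.83 (Egr2, BDNF), 0.22 (Egr4, BDNF), 0.57 (Egr1, adult cortex) and 0.87 (Egr3, adult cortex). Directions did turn where at least 1 of the values was not beyond the spread or counting error. The Egr1 light tail was -2.55 nt after centring. By assay, Egr3 after KCl was 2.56 in RNA-seq and 0.79 in RPFs at 10 min. At 30 min it was 0.42 in RNA-seq and 2.17 in tags (1.15 to 4.32). Egr4 at 10 min was 1.496 in RNA-seq, 0.72 in tags and 2.89 in RPFs (1.94 to 4.37). Of these assay values, only those with an interval shown were beyond counting error. Low counts limited Egr2 in the dark, all members in culture RNA-seq, and tails in hippocampus and the unstimulated 10-day culture. Depth was not the only difference in culture RNA-seq. In the miR-155 library, the deepest of these at 2111244 reads, Egr1 had 21 reads against 217 tags. Only 0.398% of 2260 genes had a lower ratio of reads per kb to tags there.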
